A study of Mus musculus with 30 samples.

Results

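The blood group membrane proteins described here are 10 genes, *Rhag*, *Rhd*, *Kel*, *Xk*, *Ermap*, *Icam4*, *Cd44*, *Bsg*, *Cd47* and *Aqp1*, out of 54532 genes in the count table. They were picked by name as mouse counterparts of proteins that carry human blood group antigens or, for *Cd47*, attach to such proteins. The rule uses no measured value. The choice was made with earlier results of these data known, so the members are not a set blind to the values. RNA was sequenced from murine erythroleukemia (MEL) cells, a mouse line of virus-transformed erythroid precursors that makes hemoglobin when it is treated with dimethyl sulfoxide (DMSO). WT cells and Abcb10-null cells, in which CRISPR/Cas9 had disrupted *Abcb10*, a transporter of the mitochondrial inner membrane, were compared. Each genotype was sampled untreated (day 0) and at days 2 and 5 of treatment with DMSO at 1.5%. Each genotype and day had 5 libraries, labelled as biological replicates, which makes 30 libraries. The Abcb10-null cells were 1 clone, so the lost gene and the clone cannot be told apart. All libraries had been depleted of ribosomal and globin RNA.

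Blood group antigens sit on proteins and glycans of the red cell surface. Several of these proteins belong to larger complexes: *Rhag*, an ammonium and gas channel, forms the Rh core together with *Rhd*, and *Cd47* and the anion exchanger band 3 attach to it. *Kel*, a zinc endopeptidase, is joined by a disulfide bond to *Xk*, a lipid scramblase. *Aqp1* is the water channel, *Ermap* an immunoglobulin-type protein of erythroid cells, *Icam4* an adhesion ligand for integrins, *Cd44* the hyaluronan receptor, and *Bsg* (basigin) the chaperone of the lactate transporters. Transcripts of several of these genes accumulate as erythroid cells mature, whereas *Cd44* is known to fall.

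The starts of 4 genes are shown because their proteins form 2 pairs, *Kel* with *Xk* and *Rhd* with *Rhag*. In each pair the first gene was called lower in Abcb10-null cells at each day and the second was not. *Rhag* had a negative log2 fold change at each day and lay near the threshold at day 0 (edgeR adjusted p = 0.0503). A difference between the genes of a pair was not tested. Each window runs from 250 bases before the RefSeq start of the gene to 50 bases from it (GRCm38.p6, 300 bases, 5′ to 3′ on the strand of the gene). Capitals mark matches, on either strand, to AGATAA and TGATAA, the letters that GATA factors are known to bind, and to CCNCNCCC, which Krüppel-type factors such as *Klf1* are known to bind.
Kel: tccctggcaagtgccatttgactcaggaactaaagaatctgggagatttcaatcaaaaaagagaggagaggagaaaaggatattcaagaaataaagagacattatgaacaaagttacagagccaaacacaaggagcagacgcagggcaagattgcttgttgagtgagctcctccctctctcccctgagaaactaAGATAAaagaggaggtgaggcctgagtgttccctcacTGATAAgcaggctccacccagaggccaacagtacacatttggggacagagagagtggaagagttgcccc
Xk: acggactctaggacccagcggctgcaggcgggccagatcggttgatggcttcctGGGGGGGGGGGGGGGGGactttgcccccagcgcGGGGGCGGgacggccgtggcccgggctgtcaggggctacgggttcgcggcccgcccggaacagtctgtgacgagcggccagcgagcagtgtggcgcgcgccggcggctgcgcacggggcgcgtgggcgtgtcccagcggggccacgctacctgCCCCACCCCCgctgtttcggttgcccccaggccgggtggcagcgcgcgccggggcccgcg
Rhd: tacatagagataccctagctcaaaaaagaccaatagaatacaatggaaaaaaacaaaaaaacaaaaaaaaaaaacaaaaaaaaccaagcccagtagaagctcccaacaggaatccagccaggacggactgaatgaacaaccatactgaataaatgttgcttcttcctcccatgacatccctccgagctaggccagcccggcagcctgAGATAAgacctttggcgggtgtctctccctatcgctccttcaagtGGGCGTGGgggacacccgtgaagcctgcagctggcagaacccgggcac
Rhag: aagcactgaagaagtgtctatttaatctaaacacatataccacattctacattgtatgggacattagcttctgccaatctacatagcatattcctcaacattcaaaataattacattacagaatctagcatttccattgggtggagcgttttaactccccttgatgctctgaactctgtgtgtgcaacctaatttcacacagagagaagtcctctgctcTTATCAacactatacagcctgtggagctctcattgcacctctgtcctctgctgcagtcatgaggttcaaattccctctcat

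The *Kel* window lies at chr6:41704276-41704575, minus strand, the *Xk* window at chrX:9272534-9272833, plus strand, the *Rhd* window at chr4:134864286-134864585, plus strand, and the *Rhag* window at chr17:40810899-40811198, plus strand. *Kel* held AGATAA at -56 and TGATAA at -19, counting the first base of the match from the start as 0. *Rhd* held AGATAA at -43, and *Rhag* held TGATAA on the opposite strand at -31. The *Xk* window held neither of the GATA letters and was rich in CCNCNCCC, with a run of G near -190 in which many matches overlap. Of the 9 members with a window, 6 held AGATAA or TGATAA (*Rhag*, *Rhd*, *Kel*, *Ermap*, *Icam4* and *Cd44*), against 18.6% of 32851 windows of all genes. AGATAA was in 4 of 9 (11.2% of all windows), TGATAA in 3 of 9 (9.05%), CCNCNCCC in 5 of 9 (49.5%), and GAGGAAGT, the letters of the myeloid factor PU.1, in 0 of 9 (3.2%). These matches describe the letters only. Of the members with GATA letters, *Rhd*, *Kel* and *Ermap* were called lower in Abcb10-null cells at day 5, and *Rhag*, *Icam4* and *Cd44* were not called. Of those whose windows hold none, *Aqp1* and *Cd47* were called lower at day 5 and *Xk* was not called. Any part of the letters in these values was not tested.

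Transcript levels are given in CPM, that is, counts relative to library size after TMM scaling. *Abcb10* itself had 119 ± 5.64, 567 ± 87.3 and 1219.5 ± 46.6 CPM (mean ± SD, n = 5) in WT at days 0, 2 and 5. The Abcb10-null cells had 74.3 ± 4.82, 202 ± 62.1 and 211 ± 30.9 CPM, and all their libraries lay below all WT libraries at each day. Total counts ranged from 9906783 to 20157768 per library. All 10 erythroid markers checked were above 1 CPM in some library. Their summed level in WT was 2626 to 2862 CPM at day 0, 4179 to 5929 CPM at day 2 and 11969 to 23920 CPM at day 5. In Abcb10-null libraries it was 2690 to 3034, 2759 to 3969 and 6125 to 7822 CPM. Single markers did not all follow these sums. From day 0 to day 5, 10 rose and 0 fell in WT (36.5% and 34.7% of genes tested), whereas 6 rose and 3 fell in Abcb10-null cells (33.9% and 33.3%). From day 0 to day 2, 8 rose and 0 fell in WT (31.5% and 30.7%), and 7 rose and 1 fell in Abcb10-null cells (23.1% and 20.1%). Myeloid markers (10 genes) summed to at most 25.7 CPM, mast cell markers (6) to at most 6.86 CPM and lymphoid markers (6) to at most 7.07 CPM in any library. At day 0, 3 of 5 tested myeloid and 3 of 3 tested mast cell markers were higher in Abcb10-null cells, and at day 5, 1 of 4 myeloid markers was higher while no mast cell or lymphoid marker had enough counts to be tested. Among the defining markers, Tpsb2 and Mcpt8 (mast cell) and Ms4a1 (lymphoid) were at 0 in all Abcb10-null libraries of day 0, and *Adgre1* (myeloid) in all WT libraries of day 0. Megakaryocyte markers (6) summed to 155 to 605 CPM, with *Gp1bb* at 0 in all libraries of day 0. Of the 4 tested, 1 was higher in Abcb10-null cells at day 0, 2 were lower at day 2 (median log2 fold change -0.94), and 1 was higher and 1 lower at day 5. Of all genes tested, 19.7%, 14.9% and 19.8% were higher and 16.2%, 16.9% and 17.8% lower at days 0, 2 and 5. In these bulk libraries, fewer cells of a type and less RNA per cell cannot be told apart, and the part that the lower erythroid marker level of Abcb10-null cells plays in the results that follow was not tested.

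Between the genotypes, the blood group membrane protein transcripts that were called were lower in Abcb10-null cells, with the exception of *Cd47* at day 0, and the median difference was widest at day 5. At day 0, 5 of the 10 members were lower (16.2% of 12912 genes tested were) and 1, *Cd47*, was higher (19.7% of genes). At day 2, 4 were lower (16.9% of 13053 genes) and 0 were higher (14.9% of genes). At day 5, 6 were lower (17.8% of 12676 genes) and 0 were higher (19.8% of genes), all by edgeR's quasi-likelihood test at an adjusted p under 0.05. In 6 of the 10 members all Abcb10-null libraries of day 5 lay below all WT libraries, as in 10.5% of the genes tested. This held for 2 members at day 2 (8.11% of genes) and for 5 at day 0 (9.14% of genes). Over the 10 members the median log2 value of the difference was -0.23, -0.35 and -0.75 at days 0, 2 and 5, beside -0.0019, -0.0022 and -0.016 for all genes tested. *Rhd*, *Kel* and *Bsg* were the members lower at all 3 days.

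**Figure D1:**
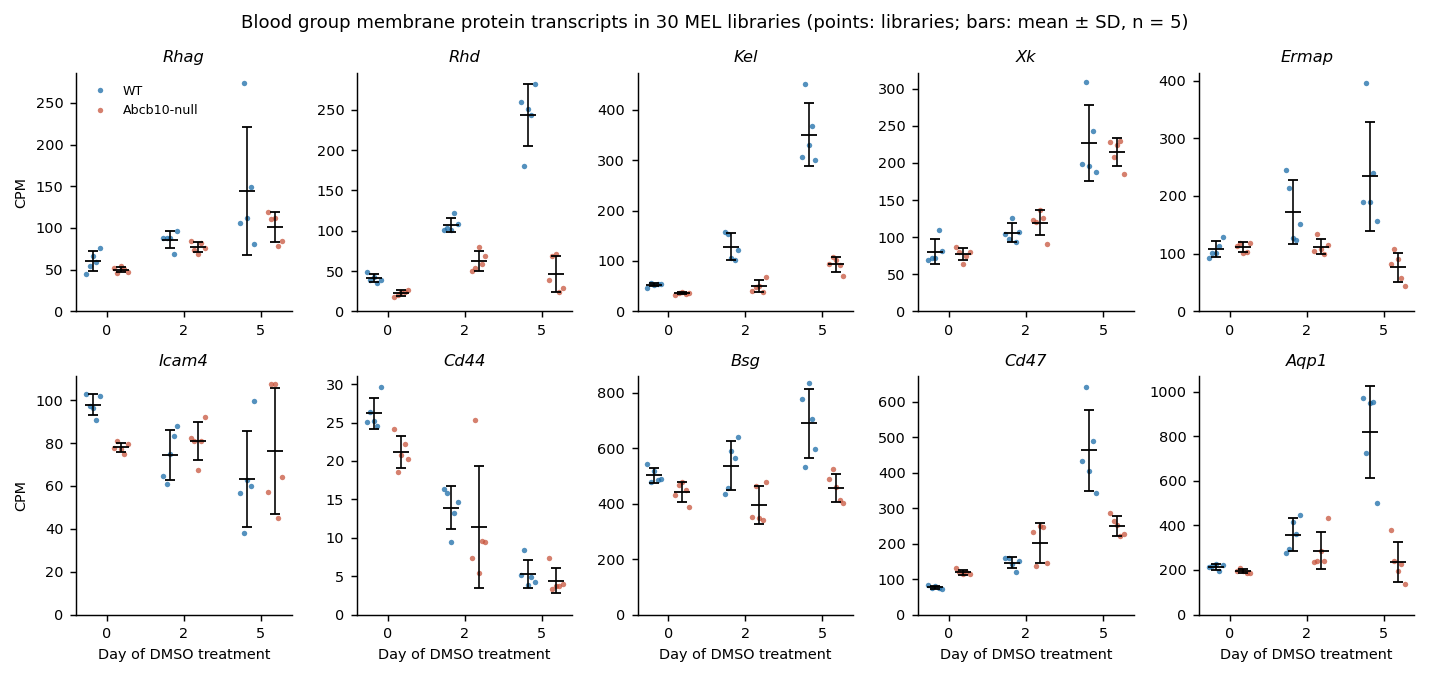
CPM (y axis, linear, from 0) of the 10 members at days 0, 2 and 5 (x axis) in WT (blue) and Abcb10-null (red) MEL libraries; points are libraries and bars mean ± SD (n = 5). At day 5 the red points of *Rhd*, *Kel*, *Ermap*, *Bsg*, *Cd47* and *Aqp1* all lie below the blue ones, and those of *Rhag*, *Xk*, *Icam4* and *Cd44* overlap with them.

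**Figure D2:**
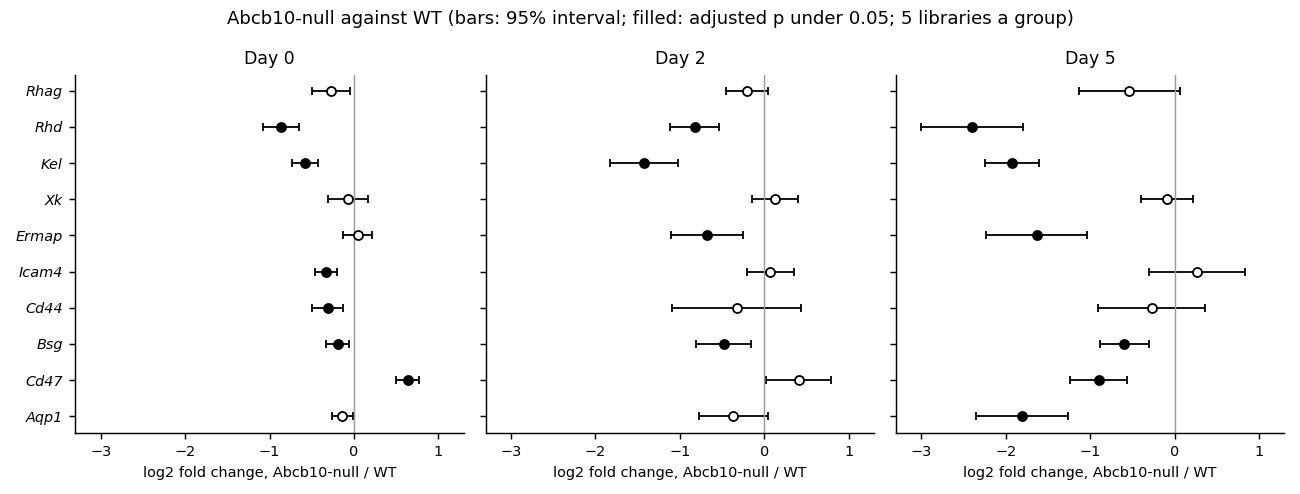
Difference of Abcb10-null from WT as log2 fold change (x axis) for each member (y axis) at each day, with 95% intervals; filled circles have an edgeR adjusted p under 0.05. *Rhd* lies at -0.86, -0.82 and -2.40, whereas *Xk* stays close to 0 and *Cd47* lies above 0 at days 0 and 2 and below it at day 5.

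Within the Rh complex, *Rhd* was lower in Abcb10-null cells at each day and *Rhag* was not called at any day. *Rhd* (ENSMUSG00000028825, GRCm38 chr4:134864536-134896172, plus strand) is the only Rh polypeptide gene of the mouse. In WT cells its libraries held 48.4, 38.7, 42.9, 35.5 and 39.5 CPM at day 0 and 100.4, 103, 101, 122 and 108 CPM at day 2. At day 5 they held 259.7, 180.4, 251, 244 and 282 CPM. The Abcb10-null libraries held 18.03, 20.7, 23.9, 23.9 and 26.9 CPM at day 0, 50.5, 54.02, 80.2, 59.04 and 68.7 CPM at day 2, and 39.3, 68.4, 71.6, 23.4 and 28.4 CPM at day 5. WT values thus climbed at each day without overlap between days, whereas Abcb10-null values of day 5 spread around those of day 2, with 3 libraries below the lowest of day 2. *Rhd* was 1.82-fold lower at day 0 (log2 fold change -0.86 ± 0.10 SE, edgeR adjusted p = 2.79e-06). It was 1.77-fold lower at day 2 (log2 fold change -0.82 ± 0.14 SE, edgeR adjusted p = 0.0026) and 5.27-fold lower at day 5 (log2 fold change -2.40 ± 0.28 SE, edgeR adjusted p = 5.03e-05). Over days 0 to 5 *Rhd* rose 5.94-fold in WT (edgeR adjusted p = 1.97e-09) and 2.07-fold in Abcb10-null cells (edgeR adjusted p = 0.00175).

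*Rhag* (ENSMUSG00000023926, GRCm38 chr17:40811126-40840754, plus strand), the glycoprotein that the Rh complex needs to reach the membrane, rose in both genotypes. The WT libraries of day 0 held 45.3, 54.7, 66.6, 58.8 and 76.2 CPM and the Abcb10-null ones 51.8, 46.3, 54, 51.2 and 47.4 CPM. At day 5 the WT libraries held 106, 274, 112, 149 and 80.5 CPM and the Abcb10-null ones 119, 111, 111, 77.9 and 84.8 CPM. A single WT library, replicate 2, set the width of the day 5 values, and the groups overlapped at each day. The log2 fold change at day 5 was -0.54 ± 0.28 SE (95% interval -1.13 to 0.063, edgeR adjusted p = 0.145). It was -0.18 without WT replicate 2 and -0.70 without WT replicate 5 (edgeR adjusted p = 0.0427). At day 0 it was -0.27 (edgeR adjusted p = 0.0503) and at day 2 -0.21 (edgeR adjusted p = 0.179). *Rhag* was called lower at day 0 by DESeq2 (adjusted p = 0.0416) and by edgeR with DESeq2 size factors (adjusted p = 0.04). At day 0 edgeR also called it with all genes of at least 1 count (adjusted p = 0.00755) and without globin, mitochondrial and small RNA genes (adjusted p = 0.0398). At day 5 it was called with all genes of at least 1 count (edgeR adjusted p = 0.0125) and with all 30 libraries in one edgeR fit (adjusted p = 0.0368). The side of the threshold on which *Rhag* falls thus depends on the test and its settings. *Rhag* rose over 5 days in both genotypes, 2.402-fold in WT and 2.03-fold in Abcb10-null cells (edgeR adjusted p = 0.00119 and 8.5e-07).

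*Cd47* (ENSMUSG00000055447, GRCm38 chr16:49800533-49915010, plus strand), the surface signal that keeps macrophages from engulfing a cell, was the member called in both directions between the genotypes, higher at day 0 and lower at day 5. At day 0 its libraries held 82.4, 75.6, 79.1, 73.97 and 71.8 CPM in WT against 130.2, 119.9, 113, 120.5 and 113 CPM in Abcb10-null cells, with no overlap. At day 2 they held 159.7, 159.7, 143, 119 and 151 CPM and 232, 136, 249, 247 and 145 CPM. The Abcb10-null libraries of day 2 fell into 3 that lay above all WT libraries and 2 (replicates 2 and 5) that lay within the WT range, and without either of these the difference was called (log2 fold change 0.52 and 0.51, edgeR adjusted p = 0.0221 and 0.0394). At day 5 the WT libraries held 433, 643, 405, 490.4 and 343 CPM, all above the Abcb10-null libraries at 286, 265, 253, 221 and 226 CPM. *Cd47* was 1.55-fold higher in Abcb10-null cells at day 0 (log2 fold change 0.63 ± 0.065 SE, edgeR adjusted p = 4.59e-07). It was not called at day 2 (log2 fold change 0.41 ± 0.18 SE, edgeR adjusted p = 0.0981) and was 1.87-fold lower at day 5 (log2 fold change -0.90 ± 0.16 SE, edgeR adjusted p = 0.000845). It rose 6.06-fold over 5 days in WT (edgeR adjusted p = 9.22e-09) and 2.11-fold in Abcb10-null cells (edgeR adjusted p = 1.6e-08).

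In the Kell complex, *Kel* was lower in Abcb10-null cells at each day and *Xk* was not called at any day. *Kel* (ENSMUSG00000029866, GRCm38 chr6:41686330-41704339, minus strand) held 47.3, 56.96, 53.2, 53.7 and 54.8 CPM in WT at day 0 and 158, 154, 107, 101 and 121 CPM at day 2. At day 5 the WT libraries held 306, 451, 329.8, 367 and 299.8 CPM. The Abcb10-null libraries held 32.8, 36.2, 38.8, 34.3 and 36.7 CPM, 40.3, 48.03, 50.8, 39.1 and 69.03 CPM, and 93.6, 108, 101, 92.2 and 69.6 CPM at the same days. At each day all Abcb10-null libraries lay below all WT libraries. *Kel* was 1.49-fold lower at day 0 (log2 fold change -0.58 ± 0.072 SE, edgeR adjusted p = 5.67e-06). It was 2.69-fold lower at day 2 (log2 fold change -1.43 ± 0.19 SE, edgeR adjusted p = 0.0008) and 3.799-fold lower at day 5 (log2 fold change -1.93 ± 0.15 SE, edgeR adjusted p = 2.64e-06). It rose over 5 days in both genotypes, 6.61-fold in WT and 2.62-fold in Abcb10-null cells (edgeR adjusted p = 1.33e-09 and 1.26e-08).

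*Xk* (ENSMUSG00000015342, GRCm38 chrX:9272756-9313250, plus strand) held 69.4, 71.5, 71.2, 109 and 81.5 CPM in WT at day 0, against 86.3, 79.7, 64.3, 74.5 and 79.6 CPM in Abcb10-null libraries. At day 5 the values were 198, 309, 196, 243 and 188 CPM in WT, against 228, 209, 225, 230.0 and 184 CPM in Abcb10-null libraries. The ranges overlapped at all 3 days, and the Abcb10-null mean of day 2, 119 ± 16.7 CPM, lay above the WT mean of 106 ± 12.7 CPM. Between the genotypes, the log2 fold change of *Xk* was -0.073 at day 0 (95% interval -0.31 to 0.16, edgeR adjusted p = 0.643). It was 0.13 at day 2 (-0.15 to 0.40, edgeR adjusted p = 0.472) and -0.088 at day 5 (-0.40 to 0.22, edgeR adjusted p = 0.659). *Xk* rose 2.82-fold in WT and 2.82-fold in Abcb10-null cells over 5 days (edgeR adjusted p = 3.12e-06 and 9.23e-10).

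*Aqp1* (ENSMUSG00000004655, GRCm38 chr6:55336432-55348555, plus strand), the water channel that carries the Colton antigens, was called between the genotypes at day 5. At day 0 WT cells had 214 ± 12.2 CPM and Abcb10-null cells 195 ± 9.22 CPM (log2 fold change -0.14, edgeR adjusted p = 0.0799). DESeq2 called it lower at day 0 (adjusted p = 0.0428), as did edgeR without WT replicate 4 (log2 fold change -0.19, adjusted p = 0.016). At day 2 the Abcb10-null libraries held 236, 241, 287, 241 and 433 CPM, against 278, 296, 414, 360.4 and 447 CPM in WT (log2 fold change -0.37, edgeR adjusted p = 0.151). Replicate 5 of the Abcb10-null libraries lay far above the others at day 2, and without it the log2 fold change was -0.56 (edgeR adjusted p = 0.0173). By day 5 WT libraries held 972, 723, 949, 952 and 501 CPM, all above the Abcb10-null libraries at 380.4, 238, 196, 226 and 138 CPM. The lowest WT library and the highest Abcb10-null library were the nearest, and *Aqp1* was 3.51-fold lower in Abcb10-null cells (log2 fold change -1.81 ± 0.25 SE, edgeR adjusted p = 0.000171). *Aqp1* rose 3.85-fold over 5 days in WT (edgeR adjusted p = 2.4e-07). In Abcb10-null cells it rose 1.503-fold by day 2 (edgeR adjusted p = 0.00781) and was not called at day 5 against day 0 (log2 fold change 0.28, edgeR adjusted p = 0.181). Without Abcb10-null replicate 5 of day 5 that change was 0.41 (edgeR adjusted p = 0.0264).

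*Ermap* (ENSMUSG00000028644, GRCm38 chr4:119175457-119190011, minus strand), the carrier of the Scianna antigens, moved in opposite directions over 5 days in the genotypes. The WT libraries held 92, 102, 102, 113 and 128 CPM at day 0 and 245, 214, 127, 124 and 151 CPM at day 2. At day 5 they held 189.7, 395, 190.2, 239 and 156 CPM. In Abcb10-null libraries the values were 114, 119, 101, 103 and 119 CPM, 104, 133, 109, 99.3 and 115 CPM, and 81.3, 108, 90.5, 57.1 and 44.2 CPM. The genotypes overlapped at days 0 and 2, and at day 5 all Abcb10-null libraries lay below all WT libraries. *Ermap* rose 2.19-fold in WT (log2 fold change 1.13 ± 0.22 SE, edgeR adjusted p = 0.000372) and fell 1.44-fold in Abcb10-null cells (log2 fold change -0.53 ± 0.18 SE, edgeR adjusted p = 0.0149). Between the genotypes, *Ermap* was not called at day 0 (log2 fold change 0.042, edgeR adjusted p = 0.725). It was 1.596-fold lower at day 2 (log2 fold change -0.67, edgeR adjusted p = 0.0212) and was 3.104-fold lower at day 5 (log2 fold change -1.63, edgeR adjusted p = 0.000652). The day 2 call was lost without WT replicate 1 (log2 fold change -0.51), and also without WT replicate 2 and without replicates 1 or 4 of the Abcb10-null libraries.

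*Bsg* (ENSMUSG00000023175, GRCm38 chr10:79704491-79711969, plus strand) was the most abundant member per exon length and was modestly lower in Abcb10-null cells. WT libraries held 543, 478, 518, 483 and 489 CPM at day 0 and 775, 533, 833, 704 and 597 CPM at day 5. Abcb10-null libraries held 430.0, 467, 478, 447 and 387 CPM and 489.9, 523, 458, 414 and 403 CPM. No library of one genotype reached those of the other at either day, though the gap between the nearest libraries was small. At day 2 the ranges overlapped, from 434 to 638 CPM in WT and from 339 to 479 CPM in Abcb10-null cells. *Bsg* was 1.14-fold lower at day 0 (edgeR adjusted p = 0.0268), 1.397-fold lower at day 2 (edgeR adjusted p = 0.0281) and 1.51-fold lower at day 5 (edgeR adjusted p = 0.00399). The call of day 0 was lost when replicate 1, 4 or 5 of the Abcb10-null libraries was left out. The call of day 2 was lost when WT replicate 3, 4 or 5 was left out, and also when replicate 1, 3 or 4 of the Abcb10-null libraries was. Over 5 days *Bsg* rose 1.37-fold in WT (edgeR adjusted p = 0.00375) and was not called in Abcb10-null cells (log2 fold change 0.06, edgeR adjusted p = 0.571).

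*Icam4* and *Cd44*, both adhesion molecules, fell over 5 days in WT, unlike the other members. *Icam4* (ENSMUSG00000001014, GRCm38 chr9:21029373-21030595, plus strand) held 103, 97.3, 96.5, 90.6 and 102 CPM in WT at day 0, above all Abcb10-null libraries at 77.5, 80.8, 77.4, 74.9 and 79.4 CPM (log2 fold change -0.33 ± 0.06 SE, edgeR adjusted p = 0.000312). At day 5 its WT libraries spread over 38.2 to 99.5 CPM and its Abcb10-null libraries over 44.95 to 108 CPM. It was called at neither day 2 (edgeR adjusted p = 0.688) nor day 5 (edgeR adjusted p = 0.454). It fell 1.54-fold over 5 days in WT (edgeR adjusted p = 0.00771) and was not called in Abcb10-null cells (log2 fold change -0.016, edgeR adjusted p = 0.948). The exons of *Icam4* are covered in full by an antisense gene, *Gm47079*, which held 11 to 50 counts per library beside 439 to 1902 for *Icam4*. Counting without regard to strand would have given reads in these exons to both genes or to neither, so the counts kept the strands apart, although the strand setting is not given in the sources used here.

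*Cd44* (ENSMUSG00000005087, GRCm38 chr2:102811141-102901665, minus strand) was the least abundant member and the one that fell most. It had 26.2 ± 2.04, 13.9 ± 2.79 and 5.29 ± 1.81 CPM in WT at days 0, 2 and 5. The means of Abcb10-null cells were 21.2 ± 2.104, 11.4 ± 7.96 and 4.42 ± 1.68 CPM. The fall over 5 days was 4.92-fold in WT and 4.72-fold in Abcb10-null cells (edgeR adjusted p = 2.4e-07 and 4.45e-08). The Abcb10-null libraries of day 2 held 7.36, 25.3, 5.39, 9.55 and 9.42 CPM, so that 1 library remained at the level of day 0. With it, the change from day 0 to day 2 in Abcb10-null cells was not called (log2 fold change -0.85, edgeR adjusted p = 0.0537), and without it the log2 fold change was -1.38 (edgeR adjusted p = 1.73e-05). With that library kept, 5 other settings called the fall, among them DESeq2 (adjusted p = 0.0229) and all 30 libraries in one edgeR fit (adjusted p = 0.00941). Between the genotypes *Cd44* was 1.24-fold lower at day 0 (edgeR adjusted p = 0.0111) and was not called at day 2 (log2 fold change -0.33, edgeR adjusted p = 0.505) or day 5 (log2 fold change -0.27, edgeR adjusted p = 0.495). Without Abcb10-null replicate 2 it was lower at day 2 (log2 fold change -0.87, edgeR adjusted p = 0.00962).

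The course of differentiation moved most members in WT cells. At day 2 against day 0, 7 of the 10 members rose and 2, *Icam4* and *Cd44*, fell in WT, where 31.5% and 30.7% of 12839 genes tested rose and fell. The rise of *Xk* lost its call without WT replicate 1, 2 or 3 of day 0, and the fall of *Icam4* lost it with all 30 libraries in one edgeR fit (log2 fold change -0.40, adjusted p = 0.0762). *Bsg* was the member not called (log2 fold change 0.10, edgeR adjusted p = 0.47). At day 5 against day 0, 8 rose and 2 fell in WT, so that each member was called (36.5% and 34.7% of 12723 genes). In Abcb10-null cells 6 rose and 0 fell at day 2 (23.1% and 20.1% of 12940 genes). At day 5 in these cells 5 rose and 2, *Cd44* and *Ermap*, fell (33.9% and 33.3% of 12915 genes). The median log2 fold change of the members was 0.59 and 1.38 in WT and 0.54 and 0.65 in Abcb10-null cells at days 2 and 5. For all genes tested it was 0.0096 and 0.023 in WT and 0.033 and 0.014 in Abcb10-null cells. Comparisons of 1 genotype share their day 0 libraries. From day 2 to day 5, which was compared by ranges without a test, all WT libraries of day 5 lay above all of day 2 for 5 members (*Rhd*, *Kel*, *Xk*, *Cd47* and *Aqp1*) and below for 1 (*Cd44*), beside 12.7% and 10.8% of 13025 genes. In Abcb10-null cells they lay above for 2 (*Kel* and *Xk*), beside 10.7% of 12797 genes, and overlapped for 8.

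Whether the 5-day change itself differed between the genotypes was tested as the interaction of genotype and day in the 20 libraries of days 0 and 5. The change was smaller or reversed in Abcb10-null cells for 5 of the 10 members (14.7% of 14020 genes tested had a lower change and 16.8% a higher one), and 0 members had a higher one. The differences were -1.65 ± 0.31 SE on the log2 scale for *Ermap* (edgeR adjusted p = 0.000236) and -1.65 ± 0.27 for *Aqp1* (edgeR adjusted p = 5.56e-05). They were -1.52 ± 0.17 for *Cd47* (edgeR adjusted p = 8.85e-07), -1.51 ± 0.31 for *Rhd* (edgeR adjusted p = 0.000747) and -1.33 ± 0.17 for *Kel* (edgeR adjusted p = 2.34e-06). For these 5 members the rise of WT cells was not matched in Abcb10-null cells, and for *Ermap* the direction turned. *Xk* differed by 0.0025 (95% interval -0.40 to 0.40, edgeR adjusted p = 0.995), *Cd44* by 0.067 (-0.52 to 0.65, edgeR adjusted p = 0.883) and *Rhag* by -0.24 (-0.90 to 0.43, edgeR adjusted p = 0.616). *Bsg* (-0.39, -0.70 to -0.073, edgeR adjusted p = 0.0554) and *Icam4* (0.62, 0.016 to 1.22, edgeR adjusted p = 0.112) were not called either. *Bsg* was called by DESeq2 (adjusted p = 0.0235). EdgeR called it with DESeq2 size factors (adjusted p = 0.0387), at least 10 counts in every library (0.0233) or a replicate block (0.0496). *Icam4* was called by edgeR with all genes of at least 1 count (adjusted p = 0.01). *Bsg* and *Icam4* were each also called when certain single libraries were left out. The median difference over the 10 members was -0.86, beside -0.011 for all genes tested.

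**Figure D3:**
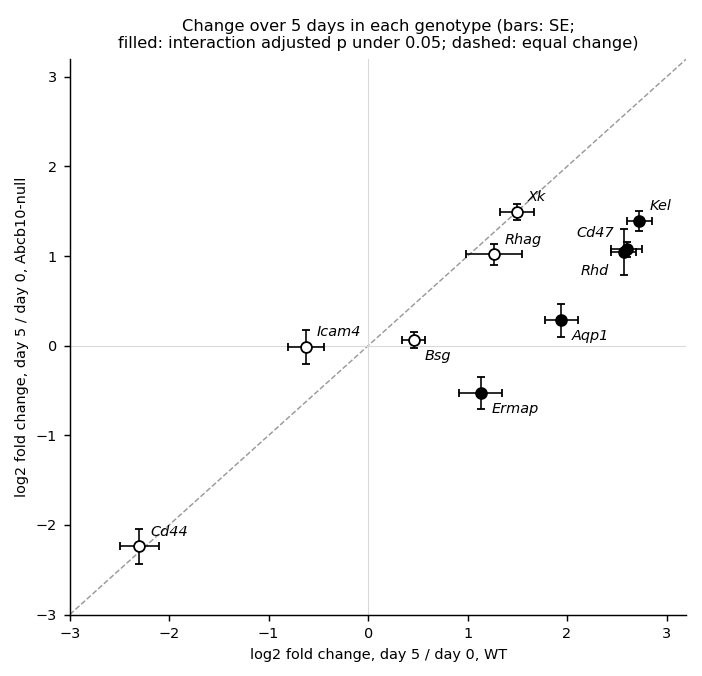
Log2 fold change of day 5 against day 0 in WT (x axis) and in Abcb10-null cells (y axis) for each member, with SE bars; filled circles have an interaction adjusted p under 0.05 by edgeR, and the dashed line marks equal change. *Kel*, *Cd47*, *Rhd*, *Aqp1* and *Ermap* lie below the line, whereas *Xk* (1.50 and 1.49), *Rhag* (1.26 and 1.02) and *Cd44* (-2.30 and -2.24) lie on or near it.

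To compare levels between genes, CPM were divided by the kilobases of merged exons of each gene. In WT cells at day 0, *Bsg* led at 277 ± 15.2 CPM per kb, followed by *Icam4* (88.2 ± 4.46) and *Aqp1* (81.3 ± 4.63), whose ranges overlapped. *Rhag*, *Rhd*, *Ermap*, *Kel* and *Xk* followed in that order from 25.8 ± 5.03 to 15.9 ± 3.28 CPM per kb, each overlapping with the next. *Cd47* (12.2 ± 0.672) and *Cd44* (3.86 ± 0.302) came last and overlapped with no neighbour. By day 5 in WT, *Bsg* (379 ± 68.2) and *Aqp1* (312 ± 78.1) overlapped, and *Rhd* (153 ± 23.9) and *Kel* (127 ± 22.4) overlapped below them. *Cd47* (73.8 ± 18.1), *Rhag* (61.7 ± 32.7), *Icam4* (57.1 ± 20.1), *Xk* (44.7 ± 9.97) and *Ermap* (44.2 ± 17.9) each overlapped with the next. *Cd44* was last at 0.781 ± 0.267 CPM per kb.

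Abcb10-null cells at day 5 kept *Bsg* at the head (252 ± 27.8 CPM per kb), followed by *Aqp1* (89.7 ± 34.2), *Icam4* (68.7 ± 26.5), *Rhag* (43.1 ± 7.76), *Xk* (42.4 ± 3.76), *Cd47* (39.8 ± 4.34), *Kel* (33.6 ± 5.28), *Rhd* (29 ± 14.1) and *Ermap* (14.4 ± 4.82), where from *Aqp1* on each range overlapped with the next. *Rhd* ranked 3 of 10 in WT and 8 of 10 in Abcb10-null cells at day 5, and *Kel* ranked 4 and 7. With the longest single transcript as the length, 8, 6 and 8 of the 10 ranks were the same in WT at days 0, 2 and 5 and 5, 6 and 7 in Abcb10-null cells, and *Rhd* and *Kel* held these ranks at day 5.

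**Figure D4:**
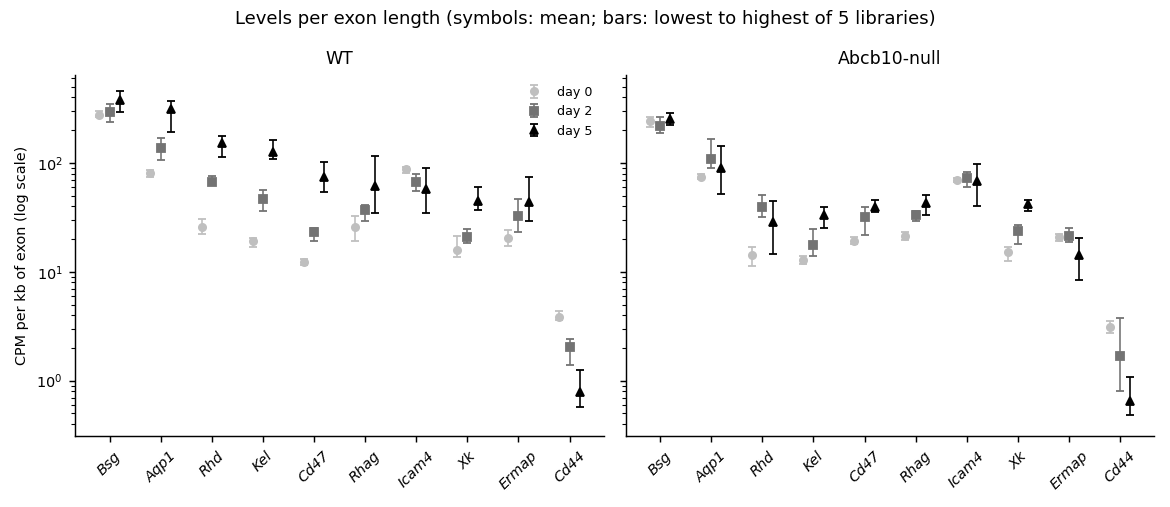
CPM per kb of exon (y axis, log scale) of the 10 members, ordered by their WT mean of day 5, in WT (left) and Abcb10-null cells (right); symbols are means and bars span the lowest to the highest of 5 libraries. *Rhd* and *Kel* stand at ranks 3 and 4 in WT at day 5 (153 and 127 CPM per kb) and reach 29 and 33.6 CPM per kb in Abcb10-null cells.

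The balance between the transcripts of partner proteins can be read within a library, where scaling between libraries plays no part. Protein was not measured in these libraries. These ratios were chosen after the values had been seen and are given without a test. The ratio of *Kel* to *Xk*, both per kb, was 1.24 ± 0.21, 2.25 ± 0.57 and 2.85 ± 0.15 (n = 5) in WT at days 0, 2 and 5, and 0.86 ± 0.15, 0.79 ± 0.34 and 0.79 ± 0.10 in Abcb10-null cells. At day 5 it lay between 2.68 and 3.08 in the WT libraries and between 0.69 and 0.95 in the Abcb10-null libraries, without overlap, and at day 0 the genotypes overlapped. The ratio of *Rhd* to *Rhag* was 1.04 ± 0.31, 1.86 ± 0.40 and 3.08 ± 1.54 in WT and 0.67 ± 0.12, 1.21 ± 0.32 and 0.65 ± 0.25 in Abcb10-null cells. Its WT values of day 5 were scattered from 0.97 (replicate 2) to 5.14 (replicate 5), and all lay above the highest Abcb10-null library at 0.94, replicate 2 by a narrow margin. The genotypes overlapped at day 0 (lowest WT library 0.76, highest Abcb10-null library 0.83) and at day 2 (1.65 and 1.70).

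**Figure D5:**
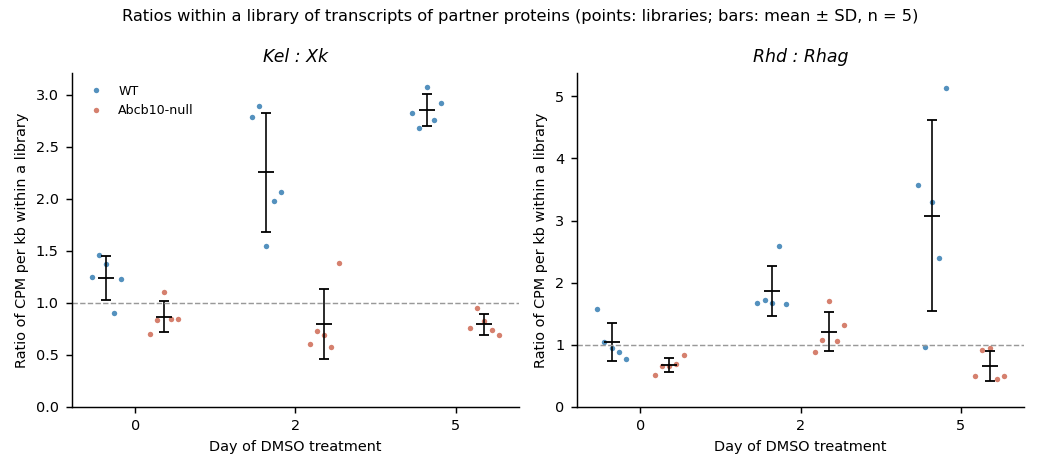
Ratio of *Kel* to *Xk* (left) and of *Rhd* to *Rhag* (right), each in CPM per kb within a library (y axis, linear, from 0), at days 0, 2 and 5 (x axis); points are libraries, bars mean ± SD (n = 5) and the dashed line marks a ratio of 1. The *Kel* to *Xk* ratio of WT libraries climbs from 1.24 to 2.85 on average, and that of Abcb10-null libraries is 0.86 at day 0 and 0.79 at day 5.

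Several members varied together between libraries of a group. Among the WT libraries of day 5, replicate 2 held the highest value of *Rhag*, *Kel*, *Xk*, *Ermap*, *Cd47* and *Cd44* and the lowest of *Rhd*, *Icam4* and *Bsg*. Replicate 5 of that group had the lowest summed erythroid marker level (11969 CPM, against 20853 to 23920 CPM in the other 4) together with the lowest *Rhag*, *Kel*, *Xk*, *Ermap*, *Cd47* and *Aqp1* values and the highest *Icam4* and *Rhd* values. Among the WT libraries of day 2, replicates 1 and 2 had the highest erythroid marker levels (5917 and 5929 CPM, against 4179 to 4871 CPM), the highest *Kel* and *Ermap* values and the lowest *Bsg*, *Aqp1* and *Icam4* values. Among the Abcb10-null libraries of day 2, replicates 2 and 5 had the lowest erythroid marker levels (2759 and 2899 CPM, against 3468 to 3969 CPM) and *Cd47* values, and the highest *Bsg* values. These libraries also differed in the share of counts in globin, mitochondria-encoded and small RNA genes. It was 6.07% and 7.45% in Abcb10-null replicates 2 and 5 of day 2, against 2.83% to 4.32% in the others. In WT replicates 1 and 2 of day 2 it was 4.42% and 4.02%, against 6.52% to 6.81%. WT replicate 5 of day 5 had 4.96%, against 7.3% to 9.29%. The part of these libraries' marker levels or composition in the values of the members was not tested. The calls at day 5 for *Rhd*, *Kel*, *Ermap*, *Bsg*, *Cd47* and *Aqp1* were kept when each library was left out in turn.

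Among 26 genes outside the members whose proteins carry blood group antigens, 25 were in the table and 22 could be tested at day 5. Of these, 8 were lower and 3 higher in Abcb10-null cells (median log2 fold change -0.15), beside 17.8% and 19.8% of all genes tested. *Slc4a1*, the anion exchanger band 3, had 514 ± 159.9 in WT against 59.3 ± 35.1 CPM in Abcb10-null libraries (log2 fold change -3.13 ± 0.40 SE, edgeR adjusted p = 9.3e-05). *Abcb6*, a porphyrin transporter that carries the Langereis antigen, had 82.5 ± 6.52 in WT against 28.5 ± 4.75 CPM in Abcb10-null libraries (log2 fold change -1.54 ± 0.13 SE, edgeR adjusted p = 4e-06). The others named by the rule were *Gypc*, a glycophorin, with a log2 fold change of -1.21, and *Ache*, the carrier of the Cartwright antigens, with -1.16. At day 0, 6 of the 21 tested were higher and 5 lower (median 0.033), beside 19.7% and 16.2% of all genes. At day 2, 2 were higher and 3 lower (median -0.046), beside 14.9% and 16.9% of all genes. Their 5-day change had 15 rises and 4 falls among 22 in WT, beside 36.5% and 34.7% of all genes. In Abcb10-null cells it had 12 rises and 3 falls among 21, beside 33.9% and 33.3% of all genes. The interaction called 7 lower and 3 higher, beside 14.7% and 16.8% of all genes. The genotype difference of the members at day 5, *Cd47* among them, at a median of -0.75, thus stands beside one of -0.15 in this list of carriers. The members and this list were chosen with earlier results of these data known, and no test of that difference was made.

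Of 13 genes for membrane and ligand partners of the members, 12 were tested at day 5. In Abcb10-null cells 6 were lower and 0 higher (median log2 fold change -0.38), where 17.8% and 19.8% of all genes tested were at that day. *Ank1*, the ankyrin that ties band 3 to spectrin, had 284 ± 144 in WT against 55.9 ± 12.1 CPM in Abcb10-null libraries (log2 fold change -2.36 ± 0.28 SE, edgeR adjusted p = 5.73e-05). *Epb42*, protein 4.2, had 161 ± 32.8 in WT against 59.9 ± 17.98 CPM in Abcb10-null libraries (log2 fold change -1.44 ± 0.21 SE, edgeR adjusted p = 0.000214). *Msn* (moesin), a link between membrane proteins such as *Cd44* and actin, had 43.7 ± 23.4 in WT against 20.8 ± 2.95 CPM in Abcb10-null libraries (log2 fold change -1.08 ± 0.28 SE, edgeR adjusted p = 0.00828). *Slc4a1* is on this list too. At day 0 the list had 3 higher and 1 lower of 11 tested, where 19.7% and 16.2% of all genes were. At day 2 it had 1 higher and 5 lower of 12, where 14.9% and 16.9% of all genes were. Of 10 erythroid and myeloid transcription factors, 5 were lower and 1 higher at day 5 (median -0.45). *Klf1*, the Krüppel-type factor that drives many erythroid genes, had 429.6 ± 59.3 in WT against 153 ± 16.01 CPM in Abcb10-null libraries (log2 fold change -1.49 ± 0.12 SE, edgeR adjusted p = 2.64e-06). *Tal1*, an erythroid and stem cell factor, had a log2 fold change of -1.38, and *Klf3*, a repressor related to *Klf1*, of -1.72. The factor that was higher was *Spi1*, which encodes PU.1, with 12.97 ± 1.500 in WT against 33.9 ± 9.56 CPM in Abcb10-null libraries (log2 fold change 1.38 ± 0.18 SE, edgeR adjusted p = 0.000123). All 10 erythroid markers, which share genes with these lists, were lower in Abcb10-null cells at day 5 (median -1.40). At day 2, 6 were lower (median -0.85), and at day 0, 2 of 9 tested were lower and 1 higher (median 0.0039).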

How the data were processed

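The deposited table holds raw read counts per gene, made by the authors and not normalized, for 54532 genes and 30 libraries. Per the labels, ribosomal and globin RNA were removed, stranded libraries were made, and reads were aligned to GRCm38 with STAR 2.6.1b and counted with featureCounts 1.6.3. The strand setting of the counting is not given in the sources used here. Total counts were 9906783 to 20157768 per library. Replicates differed by more than counting error (chi-square per degree of freedom at least 6.48), so errors come from the spread between libraries.

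Genes were tested in R 4.3.3 with edgeR 4.0.16 (TMM, filterByExpr, glmQLFit, glmQLFTest) over all genes of the table, using only the libraries of the groups compared, with Benjamini-Hochberg adjusted p under 0.05 as the threshold. Exon lengths came from GENCODE M21 and promoter windows from RefSeq (GRCm38.p6), where 9 of the 10 genes matched. The steps were tested on simulated data. Alternatives were DESeq2 1.42.0, its size factors, other filters on low counts, all libraries in one fit, leaving out globin, mitochondria-encoded and small RNA genes, a replicate block, and leaving out each library in turn. From each other gene list, at most 4 genes were named, those with the largest absolute change at day 5 among genes called with a mean of at least 1 CPM. The members and lists were chosen with earlier results of these data known. The replicate numbers were not treated as pairs. One marker gene is not reported here by name.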

Additional observations from a re-analysis of the deposited data

Results flagged for a closer look

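Of 78 groups of 5 libraries examined, 7 held a library far from the other 4. For independent, normally distributed values chance gives about 1 in 20 groups. The groups share the same libraries and the ratios reuse members, so that rate need not hold here. *Cd44* stood at 25.3 CPM in replicate 2 of the Abcb10-null libraries of day 2 (the others at 5.39 to 9.55 CPM), at 8.42 CPM in WT replicate 2 of day 5 (3.88 to 5.09 CPM), and at 7.38 CPM in Abcb10-null replicate 1 of day 5 (3.30 to 4.00 CPM). *Aqp1* stood at 433 CPM in Abcb10-null replicate 5 of day 2 (236 to 287 CPM) and *Abcb10* at 311 CPM in Abcb10-null replicate 3 of day 2 (162 to 189 CPM). The ratio of *Kel* to *Xk* was 1.38 in Abcb10-null replicate 5 of day 2 (0.57 to 0.73), and that of *Rhd* to *Rhag* was 2.58 in WT replicate 4 of day 2 (1.65 to 1.72).

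The 5-day change differed between the genotypes, by the interaction test, for *Ermap* (-1.65 on the log2 scale), *Aqp1* (-1.65), *Cd47* (-1.52), *Rhd* (-1.51) and *Kel* (-1.33), with the change lower in Abcb10-null cells for each.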

How the results depend on the processing

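Counts of members called were within 1.5 times of those reported under all settings but 3: at day 0, all 30 libraries in one fit called 3 of 10 members in place of 6 (*Icam4*, *Cd44* and *Bsg* were lost), and at day 2, leaving out replicate 1 or replicate 4 of the Abcb10-null libraries gave 2 in place of 4 (2 to 6 over all single libraries left out). Under settings that keep all libraries, 24 single values crossed the threshold, 6 of *Rhag*, 6 of *Cd44*, 5 of *Bsg*, 3 of *Icam4*, 2 of *Aqp1* and 2 of *Cd47*, and none of *Rhd*, *Kel*, *Xk* or *Ermap*. *Bsg* in Abcb10-null cells from day 0 to 5 was -0.028 with all genes of at least 1 count, and the interaction of *Xk* was -0.022 with DESeq2, -0.020 with its size factors, -0.042 with at least 10 counts in every library and -0.0081 in one fit, none of them called. With single libraries left out, values that turned sign spanned, on the log2 scale, -0.14 to 0.044 (*Xk*, day 0), -0.027 to 0.10 (*Ermap*, day 0), -0.16 to 0.039 (*Xk*, day 5), -0.026 to 0.096 (*Ermap*, day 2 against 0 in Abcb10-null), -0.17 to 0.12 (*Icam4*, day 5 against 0 in Abcb10-null), and for the interaction -0.40 to 0.14 (*Rhag*), -0.13 to 0.14 (*Xk*) and -0.21 to 0.30 (*Cd44*). The cause of these changes was not tested.

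Libraries with the same replicate number did not deviate together (75 pairs, r from -0.26 to 0.43, 8 pairs over 0.1, 15 pairs in which the library correlated best with its own number), so the numbers were not read as pairs. With the replicate block, 6, 5 and 6 members were called at days 0, 2 and 5 and 6 in the interaction: *Aqp1* at day 2 (edgeR adjusted p = 0.0454), *Bsg* in the interaction (0.0496) and *Cd44* from day 0 to 2 in Abcb10-null cells (-1.08, 0.0175) came to be called, and no other call changed. *Icam4* holds 439 counts in its shallowest library and *Cd44* 36, which limits *Cd44* most.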

Other observations

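Relatives of the blood group membrane proteins within their families were measured in the same libraries. Of 17 paralogs, 9 were tested at day 5, and 2 were higher and 1 lower in Abcb10-null cells (median log2 fold change 0.30). Of all genes tested at day 5, 19.8% were higher and 17.8% lower. In the family of *Icam4*, *Icam2* had 1.04 ± 0.394 in WT against 5.13 ± 0.892 CPM in Abcb10-null libraries (log2 fold change 2.29 ± 0.31 SE, edgeR adjusted p = 0.000133), *Icam1*, the ligand of leukocyte integrins, had 16.5 ± 2.54 in WT against 28.5 ± 5.59 CPM in Abcb10-null libraries (log2 fold change 0.79 ± 0.16 SE, edgeR adjusted p = 0.00204), and *Icam5* had 24.5 ± 5.87 in WT against 12.8 ± 1.78 CPM in Abcb10-null libraries (log2 fold change -0.94 ± 0.18 SE, edgeR adjusted p = 0.00129). At day 0, 4 of 11 tested paralogs were higher and 1 lower (median 0.23), beside 19.7% and 16.2% of all genes tested.

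Of 8 genes for enzymes that build blood group glycans or their anchors, 2 were expressed enough to be tested. *B4galnt2*, the enzyme of the Sda antigen, had 7.52 ± 12.2 in WT against 47.7 ± 11.1 CPM in Abcb10-null libraries (log2 fold change 2.65 ± 0.70 SE, edgeR adjusted p = 0.00964) at day 5, with a spread in WT larger than its mean. Both tested enzymes were higher in Abcb10-null cells at day 2, where 14.9% of all genes tested were, and at day 0 neither was called.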
